A study of Mus musculus with 93 samples.

Results

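Zbtb16 and 9 genes known to respond to glucocorticoids or fasting (Fkbp5, Tsc22d3, Tat, Igfbp1, Ppargc1a, Sgk1, Irs2, Foxo1 and Klf15) were followed across 93 mouse liver RNA-seq libraries. They were found by matching Ensembl identifiers to these symbols, which gave 10 genes (Zbtb16 spans chr9:48654297-48836222, minus strand, GRCm38), with 1 identifier each, of 39179 in the deposited tables, and all 10 passed the filter on low counts. Zbtb16 was chosen from measured values, because its level differed between Q140 and Q20 livers at 10 months. That contrast is therefore described below and no test is read from it. The same holds for Zbtb16 in every comparison of group means that its Q20 or Q140 libraries at 10 months enter. The comparisons between wild types of different housing labels, the comparisons at 6 months and the variation inside groups are not that choosing contrast. The members were nevertheless chosen with earlier results of these data known, so these comparisons may not be fully independent of the choice.

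All mice were C57BL/6, and livers came from females and males at 6 and 10 months of age. The mutant animals were heterozygous knock-ins labelled Q20, Q50, Q92 or Q140, where the number is the CAG repeat length carried by the knocked-in allele of the Huntington's disease gene Htt. The wild-type (WT) animals were described as littermate controls, and their labels give their cage companions as either Q20 or Q50 heterozygotes. Mice that share a housing label are called a colony below, as a short name only. The labels do not say whether it marks a colony of origin, a litter or only a cage. These, and any difference in cohort or day of collection, cannot be told apart. Neither Q92 nor Q140 mice had a wild-type group of their own. The library numbers in the labels form a separate series at each age. Age and any difference between these series can therefore not be told apart. Genotype, age and sex made 24 groups, of which 21 had 4 libraries and 3 had 3 libraries (Q20, Q92 and Q140 males at 10 months). Feeding state, hour of collection and circulating hormone levels are not given in the sources used here. The libraries come from whole liver, so fewer cells of a type and less RNA per cell cannot be told apart.

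Glucocorticoids bind the glucocorticoid receptor, which enters the nucleus and acts on genes through a palindromic response element, while fasting lowers insulin and so releases the forkhead factor Foxo1 from its insulin-driven exclusion from the nucleus. In liver the 2 signals meet on genes of gluconeogenesis and amino acid breakdown. Zbtb16 is a BTB-domain zinc-finger transcription factor that glucocorticoids induce in many cell types. Fkbp5 is an Hsp90 co-chaperone that lowers the receptor's affinity for hormone, and Tsc22d3 (also called GILZ) is an anti-inflammatory leucine-zipper protein. Tat encodes tyrosine aminotransferase, Sgk1 encodes a serum- and glucocorticoid-regulated kinase, and Klf15 encodes a transcription factor of amino acid catabolism. Igfbp1 is a secreted binding protein for insulin-like growth factors whose transcription insulin represses, Irs2 is an adaptor of the insulin receptor, and Ppargc1a is a transcriptional coactivator of the fasting response.

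The stretches of 250 bases just upstream of annotated starts are shown for 4 members, because Fkbp5 and Foxo1 were the members that varied together with Zbtb16, Igfbp1 was the member that came nearest to it between wild-type colonies, and Sgk1 was the only member with a full response element. They come from RefSeq (GRCm38.p6), whose table held windows for 9 of the 10 members (16 windows, with none for Zbtb16), and are written from 5′ to 3′ on the gene's strand. Capitals mark AGAACA or TGTTCT (the core of the glucocorticoid response element), the palindrome made of 2 such cores, and CAAAACA, a core of the insulin response element. GTAAACA, a forkhead core, was searched as well. Searches covered both strands of the 300 bases of each window, of which the last 50 follow the start and are not shown.
Sgk1, chr10:21993640-21993889, plus strand: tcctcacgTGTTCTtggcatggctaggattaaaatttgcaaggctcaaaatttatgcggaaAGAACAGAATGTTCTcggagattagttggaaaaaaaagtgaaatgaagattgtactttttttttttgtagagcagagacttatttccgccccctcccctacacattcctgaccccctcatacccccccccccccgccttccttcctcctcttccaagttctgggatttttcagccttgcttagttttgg
Igfbp1, chr11:7197537-7197786, plus strand: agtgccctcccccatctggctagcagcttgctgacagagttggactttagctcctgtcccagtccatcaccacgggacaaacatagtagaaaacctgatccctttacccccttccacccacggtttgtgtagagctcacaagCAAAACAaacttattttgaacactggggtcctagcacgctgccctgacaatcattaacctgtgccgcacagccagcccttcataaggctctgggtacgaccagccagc
Fkbp5, chr17:28486150-28486399, minus strand: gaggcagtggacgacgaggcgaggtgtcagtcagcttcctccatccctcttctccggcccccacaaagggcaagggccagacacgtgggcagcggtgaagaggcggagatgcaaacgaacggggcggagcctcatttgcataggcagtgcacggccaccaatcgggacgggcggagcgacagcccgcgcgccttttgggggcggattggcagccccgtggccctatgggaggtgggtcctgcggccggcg
Foxo1, chr3:52268087-52268336, plus strand: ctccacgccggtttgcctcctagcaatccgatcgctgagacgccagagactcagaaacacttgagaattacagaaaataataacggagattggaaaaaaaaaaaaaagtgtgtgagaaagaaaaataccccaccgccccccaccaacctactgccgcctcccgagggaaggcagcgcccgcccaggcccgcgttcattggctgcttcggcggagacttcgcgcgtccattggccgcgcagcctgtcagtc
The Sgk1 window shown, which lies inside the annotated span of that gene, held the full palindrome 189 bases before the start. Sgk1 had several windows, and this one is shown because it alone held the palindrome. The palindrome was searched as AGNACA, 3 bases of any kind, and TGTNCT, and it occurred in 0.0639% of 32851 windows of this kind across the genome, while the single core occurred in 19.0%. Among members the single core was found for Sgk1 and Tsc22d3. The Igfbp1 window held CAAAACA 108 bases before the start, a match found in 6.28% of all windows and, among members, also for Irs2. The Fkbp5 window, also inside its gene's annotated span, and the Foxo1 window held none of these motifs, and no member's window held GTAAACA, which occurred in 3.65% of windows. A match is a description of the letters, and none of these windows was measured for binding.

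Each library held 28752200 to 46776900 estimated counts (median 36089400), with a median of 39509350 at 6 months and 34378500 at 10 months. Albumin, the defining hepatocyte transcript, was abundant in every library (41888 to 107673 CPM, counts scaled to library size). Mitochondrial genes took 7.59 to 26.8% of counts. There were 5 libraries that stood apart, either by the neuronal transcript Snap25 at 1 CPM or more or by a mitochondrial share of 15% or more. They were Q140 females at 10 months replicate 1, Q140 males at 6 months replicate 4, Q20 males at 6 months replicate 1, Q92 males at 6 months replicate 1, and Q20-housed WT males at 10 months replicate 1, and results that depend on them are given without them. Same-group libraries differed by more than counting noise in all 135 pairs, and nothing in the labels says that libraries of a group came from separate animals, so the p-values rest on differences among libraries, which may in part be technical.

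Per unit of length, Tat was the most abundant of the 10 transcripts at 667 ± 193 FPKM (the authors' values scaled by transcript length and depth; SD, n = 93). Klf15 followed at 59.95 ± 14.8 FPKM and Tsc22d3 at 51.7 ± 22.0 FPKM, and then Igfbp1 at 31.6 ± 28.3 FPKM. Fkbp5 was at 13.5 ± 8.99, Sgk1 at 11.2 ± 4.17 and Foxo1 at 7.37 ± 1.73 FPKM. Zbtb16 was among the 3 lowest, at 3.69 ± 3.59 FPKM, with Irs2 at 3.18 ± 1.70 and Ppargc1a at 2.68 ± 0.92 FPKM. Tat stood clear of Klf15, while every other pair of neighbours in this order lay within 1 SD of each other's range.

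Zbtb16 was the most variable member among livers of the same genotype, age and sex. Its SD inside groups was 1.01 on the log2 CPM scale, above 97.9% of all 16126 tested genes, whose median was 0.267. Igfbp1 came next at 0.956 (97.3rd percentile), followed by Tsc22d3 at 0.670, Irs2 at 0.644 and Fkbp5 at 0.551. Foxo1 (0.313) and Klf15 (0.343) were the steadiest members, yet still above the median gene. Counting error was small against this, since Zbtb16 had 102 to 2751 counts in a library.

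At 10 months Zbtb16 levels differed widely between groups, and they are given here by housing label, called a colony. In Q20 heterozygotes it was 39.8 ± 22.0 CPM (SD, n = 7; lowest 16.4, median 34.1, highest 75.4). Their wild-type companions stood at 45.2 ± 25.1 CPM (n = 8; 13.6, 43.7 and 91.3). In Q50 heterozygotes it was 9.43 ± 6.30 CPM (n = 8; 2.66, 7.37 and 21.8), and in their wild-type companions 7.35 ± 3.12 CPM (n = 8; 4.16, 5.96 and 11.52). Among the wild types, which are not in the choosing contrast, every Q20-housed value lay above every Q50-housed one. The share of all genes with such a separation was not computed, so this is a description of the values. The high values of the Q20 heterozygotes are part of how Zbtb16 was chosen and support nothing further. Over the 15 livers of the Q20 colony at 10 months the median was 36.3 CPM, and over the 16 of the Q50 colony it was 6.85 CPM, with ranges that overlapped between 13.6 and 21.8 CPM.

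The remaining 10-month groups were Q92 at 15.9 ± 13.4 CPM (n = 7; lowest 3.23, median 10.2, highest 42.1) and Q140 at 7.93 ± 1.78 CPM (n = 7; 4.96, 8.11 and 9.76). The Q140 values lay below every Q20 value, with a log2 difference of −2.26 ± 0.57 (SE), and this is the contrast by which Zbtb16 was picked. No test is read from it, and across all genes 0.44% were called there (called means an adjusted p under 0.05 in edgeR's quasi-likelihood test). The Q140 livers at 10 months lay within the range of the Q50 colony.

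**Figure D1:**
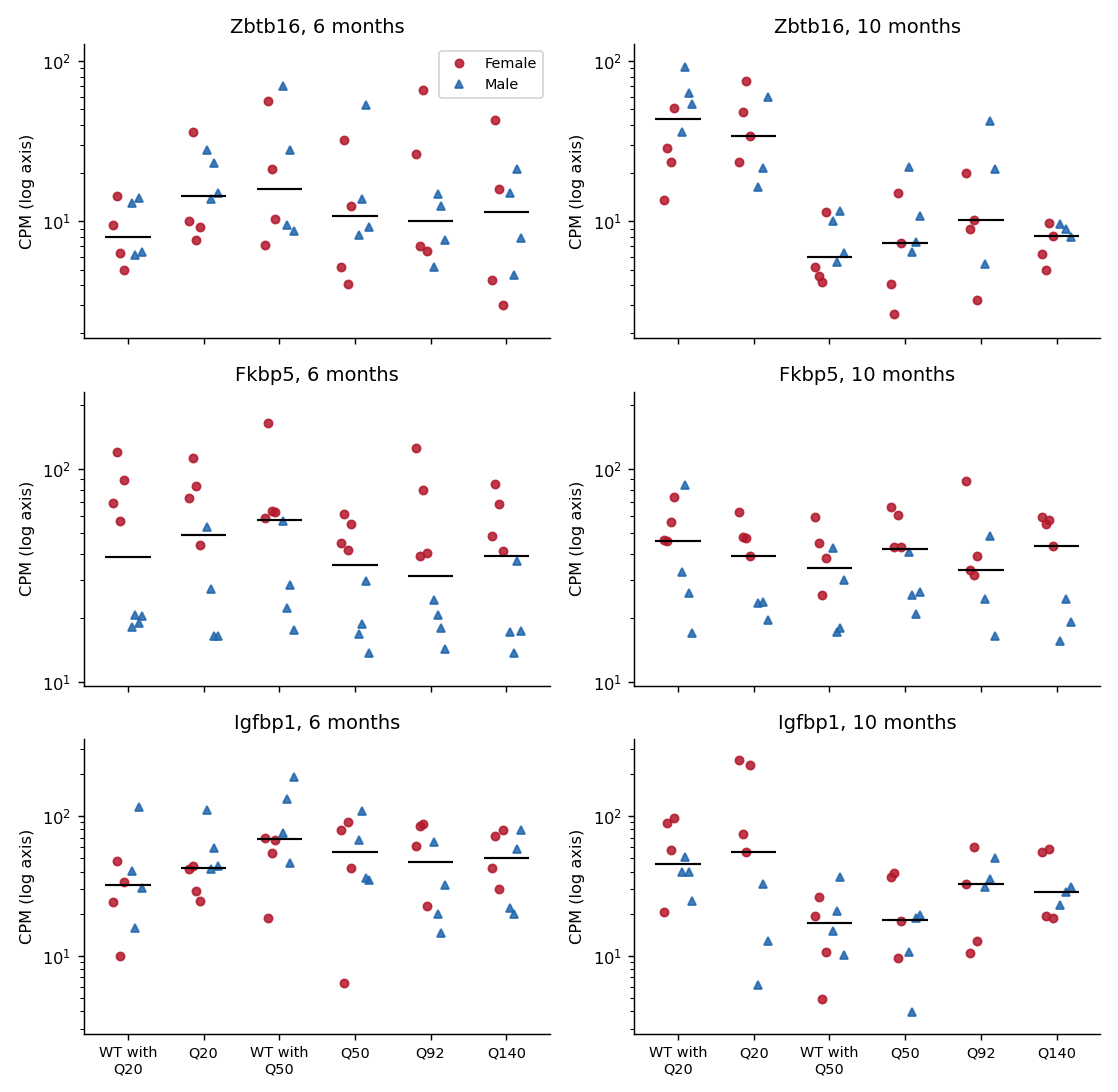
CPM (log axis) of Zbtb16, Fkbp5 and Igfbp1 in each library, by genotype and age; red circles are females, blue triangles are males and bars are medians. At 10 months Zbtb16 in WT housed with Q50 mice spans 4.16 to 11.52 CPM and in WT housed with Q20 mice 13.6 to 91.3 CPM, while Fkbp5 spans 17.1 to 59.3 and 16.9 to 84.2 CPM in the same groups.

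At 6 months the same groups held another order. Zbtb16 was lowest in wild types housed with Q20 mice, at 9.35 ± 3.93 CPM (n = 8; lowest 4.99, median 7.94, highest 14.4), and highest in wild types housed with Q50 mice, at 26.4 ± 24.1 CPM (n = 8; 7.11, 15.8 and 70.2). The 4 mutant genotypes lay between them, with means of 14.4 ± 13.3 (Q140), 17.3 ± 17.0 (Q50), 17.8 ± 10.1 (Q20) and 18.3 ± 20.6 CPM (Q92). SDs were nearly as large as the means in most of these groups, and neighbouring groups overlapped.

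The 2 wild-type groups share a genotype and differ in their labelled housing, so their comparison asks whether members varied between colonies without any mutant allele. At 10 months Zbtb16 was lower in Q50-housed than in Q20-housed wild types by 2.54 on the log2 scale, a difference of −2.54 ± 0.53 (SE; adjusted p = 0.0043 by edgeR's quasi-likelihood test over all genes, n = 8 against 8). The direction held in both sexes, with mean CPM of 6.34 against 29.2 in females and 8.37 against 61.3 in males. Of the 10 members, 1 was called, set against 1.9% of all genes. The call was lost when only libraries with a sequencing index in their label were used (−2.85, adjusted p = 0.108), a setting that dropped 3 Q50-housed and 1 Q20-housed library. It held without the libraries that stood apart (−2.62, adjusted p = 0.00816).

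Igfbp1 had the second largest difference in this comparison but did not pass. Its level was 18.0 ± 10.2 CPM in Q50-housed wild types (lowest 4.88, median 17.1, highest 36.7) and 52.3 ± 27.8 CPM in Q20-housed ones (20.6, 45.6 and 97.0). The ranges overlapped, and the log2 difference was −1.51 ± 0.46 (adjusted p = 0.0625, edgeR). DESeq2 called it (adjusted p = 0.0263), and edgeR did so after leaving out the Q20-housed female replicate 1 (0.0462) or the Q20-housed male replicate 4 (0.0416). Fkbp5 was at 34.5 ± 14.5 against 47.8 ± 23.1 CPM, a difference of −0.49 ± 0.28 (adjusted p = 0.373). Tsc22d3 differed by −0.41 ± 0.32, and for the remaining 6 members (Tat, Ppargc1a, Sgk1, Irs2, Foxo1 and Klf15) the estimate lay between −0.09 and 0.16. A p that misses the threshold does not show that these members were alike in both groups.

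At 6 months the estimate for Zbtb16 went the other way, 1.49 ± 0.51 higher in Q50-housed wild types, and was not called (adjusted p = 0.511; 0.0186% of genes were called). A test of whether the housing difference itself changed with age was added after these values were seen. For Zbtb16 the difference at 10 months minus that at 6 months was −4.03 ± 0.74 (adjusted p = 0.00158, edgeR). For Igfbp1 it was −2.50 ± 0.64 (adjusted p = 0.0437), with 6-month levels of 81.5 ± 54.6 CPM in Q50-housed and 39.7 ± 33.2 CPM in Q20-housed wild types. The estimates were −0.86 ± 0.40 for Fkbp5 (adjusted p = 0.382) and −1.01 ± 0.45 for Tsc22d3 (adjusted p = 0.370), neither called. Thus 2 of 10 members were called, against 0.552% of all genes, and since Zbtb16 passed on leaving out any of the 32 wild-type libraries while 1 member was left in 23 of those 32 fits, it was Igfbp1 whose call was lost there.

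**Figure D2:**
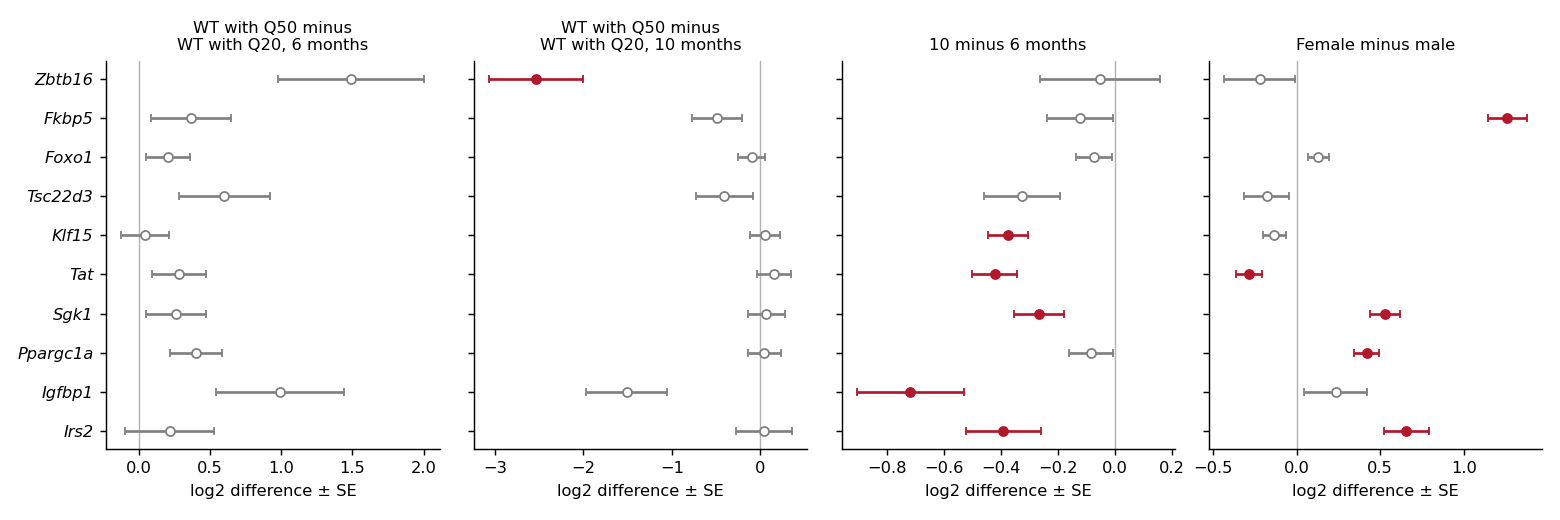
Log2 differences with standard errors for the 10 members in wild types housed with Q50 against those housed with Q20 at 6 and at 10 months, in livers at 10 against 6 months, and in females against males; filled red points passed an adjusted p of 0.05. Zbtb16 is the only filled point of the 10-month housing comparison, at −2.54, and sits at 1.49 on the 6-month one.

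Mutant livers were compared with the wild types of their own colony. For Zbtb16 in Q20 against Q20-housed wild types the log2 difference was 0.92 ± 0.51 at 6 months (adjusted p = 0.979, edgeR) and, as a description only, −0.14 ± 0.51 at 10 months, with 0.0062% of genes called at each age. In Q50 against Q50-housed wild types it was −0.64 at 6 months (0.0062% of genes called) and 0.33 ± 0.52 at 10 months (0.0124% called). For Q92 and Q140, which had no wild types of their own, both wild-type groups served together. Zbtb16 in Q140 was then −0.14 at 6 months (2.45% of genes called) and, as a description only, −1.13 ± 0.50 at 10 months (0.0186% called). In Q92 it was 0.06 at 6 months (0.0248% called) and −0.17 ± 0.47 at 10 months (0.0372% called).

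Against Q20 heterozygotes, Zbtb16 differed at 6 months by −0.11 in Q92 (0.0062% of genes called) and by −0.31 ± 0.50 in Q140 (adjusted p = 0.849; 0.0558% called). In Q92 at 10 months it was −1.30 ± 0.55 (2.6% of genes called), again a description, since the Q20 libraries are those of the choosing contrast. In the 8 of these 11 comparisons that share no library with the choice, Zbtb16 was called in 0 by edgeR, with 0 at an unadjusted p under 0.05. The other 9 members were called in 0 of 99 values over the 11 comparisons, with 4 at an unadjusted p under 0.05, and DESeq2 called 0 members in them. For Igfbp1 the Q20 livers at 10 months spanned 6.15 to 252 CPM (median 55.4, n = 7), wider than in any other genotype at that age. The span divided by sex, with 55.4 to 252 CPM in females and 6.15 to 32.5 CPM in males.

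The question then was whether livers with more Zbtb16 than others of the same genotype, age and sex also had more of the other members. Fkbp5 and Foxo1 did. Fkbp5 rose by 0.32 ± 0.05 (SE) log2 units per log2 unit of Zbtb16 (adjusted p = 5.35e-05, edgeR over 16125 genes, 93 libraries), and Foxo1 rose by 0.17 ± 0.03 (adjusted p = 0.000243). These were 2 of 9 members, against 1.43% of all genes in either direction, 0.974% upward and 0.459% downward. Fitted in females alone Foxo1 was not called (0.159, adjusted p = 0.0648), and in males alone and in wild types alone neither gene was, with slopes of 0.370 and 0.435 for Fkbp5 and 0.188 and 0.195 for Foxo1. In the fit of all 93 libraries both slopes stayed called whichever single library was left out, at 0.305 to 0.337 for Fkbp5 and 0.159 to 0.176 for Foxo1.

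The 4 females of the Q50-housed wild-type group at 6 months are an example in which 1 library carries most of the Fkbp5 change. Zbtb16 was 7.11, 56.2, 21.2 and 10.4 CPM in replicates 1 to 4. Fkbp5 was 58.7, 165, 63.3 and 62.8 CPM and Foxo1 34.6, 64.8, 47.2 and 52.9 CPM in the same order. Replicate 2 was the highest for all 3 genes and replicate 1 the lowest, so the genes agreed at both ends, while the middle 2 livers kept their order for Fkbp5 and swapped it for Foxo1. Outside replicate 2, which is flagged below for Fkbp5, that gene spanned only 58.7 to 63.3 CPM while Zbtb16 spanned 7.11 to 21.2 CPM.

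Other members did not pass. The slopes were 0.09 ± 0.04 for Ppargc1a (adjusted p = 0.378), 0.07 ± 0.08 for Tsc22d3 (0.761), 0.05 ± 0.04 for Klf15 (0.632) and −0.00 for Tat (0.997). For the genes that insulin governs they were −0.12 ± 0.08 for Irs2 (0.564) and −0.09 ± 0.11 for Igfbp1 (0.823), and for Sgk1 the slope was −0.03 (0.872). Tat and Tsc22d3, long-used readouts of glucocorticoid action in liver, were thus not called, and the difference between their slopes and that of Fkbp5 was not tested.

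Correlations of the same deviations from group means showed this gene by gene, over 93 libraries, with p-values from 100000 permutations within groups, two-sided (1e-05 is the smallest they can give). With Zbtb16, Pearson's r was 0.569 for Fkbp5 (p = 1e-05; Spearman's rho 0.510, p = 2e-05) and 0.547 for Foxo1 (p = 1e-05; rho 0.492, p = 6e-05). It was 0.245 for Ppargc1a (p = 0.0498; rho 0.201, p = 0.098), and between −0.163 (Irs2) and 0.181 (Klf15) for the other 6 of the 9 relations computed. Without the 2 libraries farthest from the median of Zbtb16 (Q140 females replicate 2 and Q92 females replicate 3, both at 6 months), r was 0.560 for Fkbp5 and 0.503 for Foxo1. In females alone r was 0.632 and 0.532, and in males 0.519 and 0.572, for Fkbp5 and Foxo1 in that order.

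The correlations were higher in the younger livers, but the slopes were not shown to differ between ages. At 6 months r with Zbtb16 was 0.716 for Fkbp5 and 0.635 for Foxo1 (48 libraries), and at 10 months 0.337 (permutation p = 0.067) and 0.368 (p = 0.035; 45 libraries). Fitted on 6-month libraries alone, the slopes were 0.363 and 0.192 and both were called (adjusted p = 0.000323 and 0.00346, edgeR). On 10-month libraries alone they were 0.244 and 0.121 and neither was (0.48 and 0.486). The slope at 10 months minus that at 6 months was −0.11 ± 0.11 for Fkbp5 (unadjusted p = 0.322, edgeR) and −0.07 ± 0.07 for Foxo1 (0.302). No gene was called in that test (0% of 16125 genes; 1436 had an unadjusted p under 0.05), nor between sexes (0%; 922). At 6 months the correlation with Zbtb16 was 0.347 for Tsc22d3 (permutation p = 0.038), 0.356 for Klf15 (p = 0.021) and −0.384 for Irs2 (p = 0.041). At 10 months the corresponding values were −0.185, −0.078 and 0.272, of the opposite sign. The change of slope with age was not called for any of them. Its unadjusted p (edgeR) was 0.038 for Tsc22d3, 0.101 for Klf15 and 0.0128 for Irs2, with adjusted p of 0.554, 0.620 and 0.538. For Tat it was 0.0256 (adjusted p = 0.538).

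**Figure D3:**
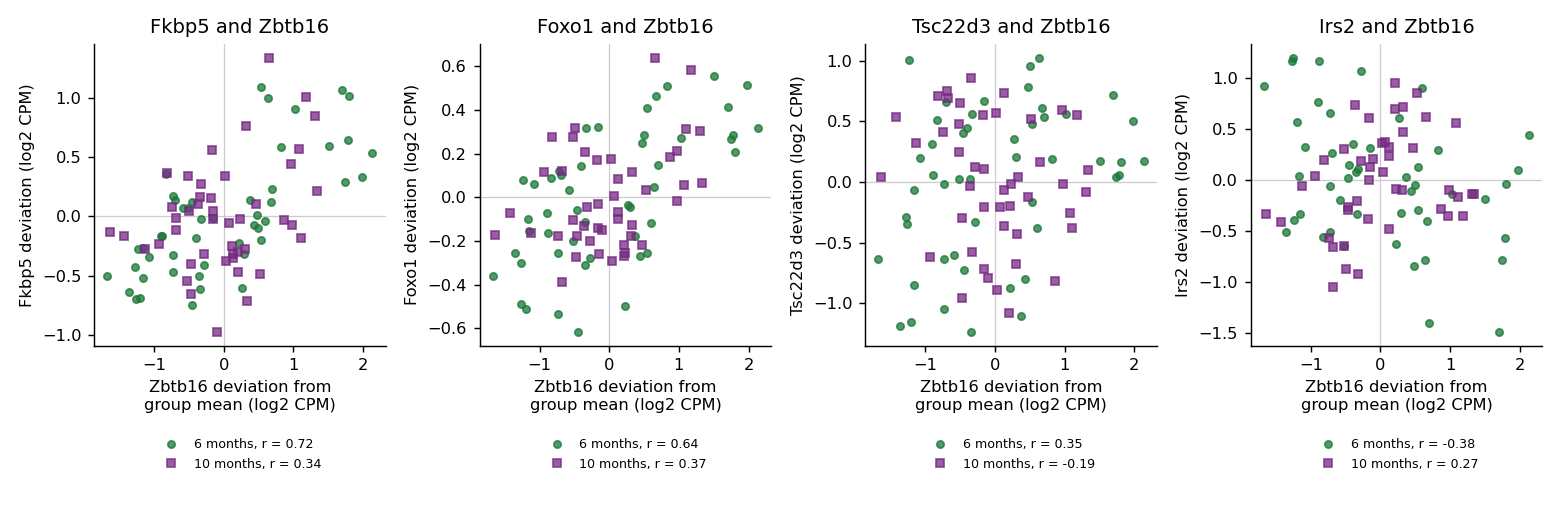
Deviation of Fkbp5, Foxo1, Tsc22d3 and Irs2 from the mean of each library's group against the deviation of Zbtb16, all in log2 CPM, with 48 libraries at 6 months and 45 at 10 months marked apart. Fkbp5 (r = 0.569) and Foxo1 (r = 0.547) climb with Zbtb16, while Irs2 (r = −0.163) and Tsc22d3 (r = 0.158) form a broad cloud, with signs that differ between the ages.

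The number of counts in a library moved with Zbtb16 as well. Over all libraries, r between the deviation of Zbtb16 and that of the total count was −0.399 (permutation p = 0.00171, rho −0.403), which came from 6 months (r = −0.615, p = 5e-05) and not from 10 months (r = 0.040, p = 0.833). At 6 months the total also ran against Fkbp5 (−0.582), Foxo1 (−0.543), Tsc22d3 (−0.504), Tat (−0.443) and Klf15 (−0.399). With the total count in the fit, the slopes over all libraries were 0.305 for Fkbp5 (adjusted p = 0.00111, edgeR) and 0.166 for Foxo1 (0.00237). At 6 months with the total count they were 0.289 (0.0833) and 0.148 (0.253) and no longer called. With the total regressed out, r was 0.506 and 0.505 over all libraries, and 0.559 and 0.454 at 6 months. The mitochondrial share (r = −0.18), the share of the 10 most abundant genes (r = −0.02) and the scaling factor (r = −0.15) moved less with Zbtb16.

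**Figure D4:**
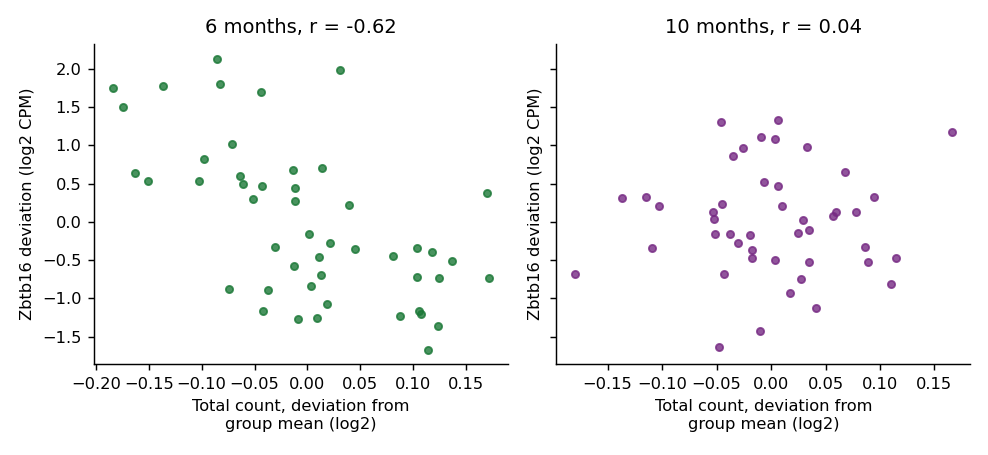
Deviation of Zbtb16 (log2 CPM) from its group mean against the deviation of the library's total count (log2), at 6 and at 10 months. The 6-month points slope downward (r = −0.615, 48 libraries) and the 10-month points do not (r = 0.040, 45 libraries).

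Among themselves the members fell into pairs that varied together more tightly than any did with Zbtb16. The strongest of the 45 pairs were Tsc22d3 with Klf15 (r = 0.777), Tat with Klf15 (0.737) and Tsc22d3 with Tat (0.695), 3 genes with glucocorticoid-responsive transcription in liver. Fkbp5 with Foxo1 followed at 0.674, with 0.704 at 6 months and 0.635 at 10 months, so the 2 members that tracked Zbtb16 also tracked each other at both ages. The insulin-governed pair Igfbp1 and Irs2 reached 0.494 and Tat with Igfbp1 0.473. Of the 45 pairs, 8 had r over 0.5, 25 had an unadjusted permutation p under 0.05 and 9 had r below 0. The same shares over pairs of all genes were not computed, so these counts are not read as a trait of the members. All pairs share libraries and total count, so these values describe the livers and are not independent of one another.

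**Figure D5:**
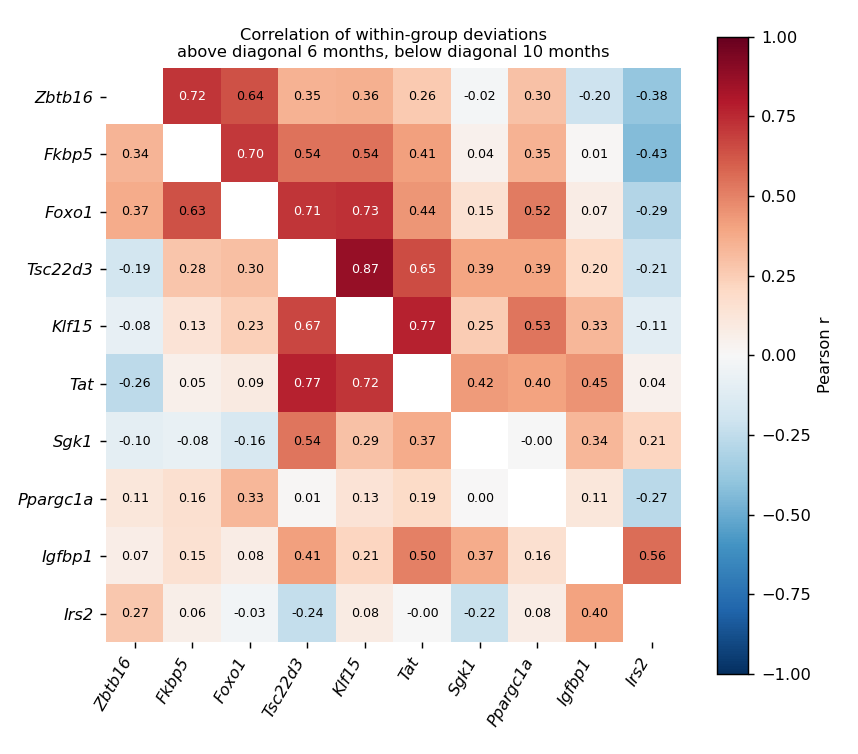
Pearson's r between deviations from group means for each pair of the 10 members, at 6 months above the diagonal and at 10 months below it. Tsc22d3, Tat and Klf15 form one block, and Fkbp5 with Foxo1 is high at both ages (0.704 and 0.635).

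The genes most like Zbtb16 were named as the 10 with the highest and the 5 with the lowest r among 12087 genes with a symbol and a mean of 1 CPM or more. The 10 highest were Arhgef26 (r = 0.70), Susd6 (0.68), Il6ra (0.68), Rad54l2 (0.67), Ulk1 (0.62), Tns1 (0.62), Baiap2l1 (0.62), Lpin1 (0.61), Sik3 (0.61) and Map3k6 (0.61). Il6ra is the interleukin-6 receptor, Ulk1 starts autophagy, Lpin1 is a phosphatidate phosphatase and Sik3 is a salt-inducible kinase. Among all 16125 tested genes, a wider set without those 2 limits, Fkbp5 ranked 17 and Foxo1 27 by r. The slope was 0.32 ± 0.04 for Arhgef26 (adjusted p = 1.45e-07, edgeR) and 0.53 ± 0.09 for Lpin1 (5.93e-05). The 5 lowest were Camk2g (−0.54), Top3a (−0.52), Pde4b (−0.52), Trim26 (−0.50) and BC004004 (−0.50).

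Between the wild-type colonies at 10 months, 2 of those 10 were called, where 1.9% of all genes were. Map3k6 was lower in Q50-housed wild types (−1.27 ± 0.29, adjusted p = 0.0113, edgeR), and so was Tns1 (−0.43 ± 0.12, adjusted p = 0.0468). The other 8 were not called, with estimates from −0.64 for Il6ra to −0.04 for Baiap2l1, all below 0.

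Other genes of the pathway were taken from lists written for this tissue with earlier results of these data known. Of 14 genes of the receptor and of steroid handling, 0 moved with Zbtb16. The slope was −0.04 ± 0.02 for Nr3c1, the glucocorticoid receptor itself (adjusted p = 0.483), and the list's median slope was −0.002 against −0.004 over all genes. Of 30 further glucocorticoid targets, 3 rose with Zbtb16 and 0 fell, with a median slope of 0.122. Over all genes 0.974% rose and 0.459% fell, and the list counts here are read against those shares. They were Lpin1, Hif3a (0.44 ± 0.10, adjusted p = 0.00512), a hypoxia-inducible factor subunit, and Il1r1 (0.26 ± 0.05, adjusted p = 0.000257), the interleukin-1 receptor. Classical targets that did not pass were Angptl4 (0.28 ± 0.09, 0.104), an inhibitor of lipoprotein lipase, and Per1, a clock gene (0.04 ± 0.10, 0.929).

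Of 30 genes of fasting catabolism, 0 moved with Zbtb16, with a median slope of 0.015. Pck1, the gluconeogenic enzyme, had 0.14 ± 0.06 (adjusted p = 0.319), and Cpt1a, which carries fatty acids into mitochondria, had 0.09 ± 0.03 (0.127). Of 25 genes of feeding and lipogenesis, 2 rose, namely Lpin1 and Acaca, an acetyl-CoA carboxylase (0.14, adjusted p = 0.0394). Of 23 tested clock genes, 1 rose (Hlf, 0.10, adjusted p = 0.0173). Of 20 immediate early and heat shock genes, 2 fell, namely Atf3 (−0.33, adjusted p = 0.00308) and Nr4a1 (−0.51, 0.0394), with a median of −0.043. Of 20 acute phase genes, 1 rose (Il1r1, also counted above), and of 11 hepatocyte markers 1 did (Hnf4a, 0.09, adjusted p = 0.0263). Of 69 tested markers of other cell types, out of 84 listed, 0 were called, with 8 at an unadjusted p under 0.05. Only 3 of 8 adipocyte markers and 3 of 12 adrenal, kidney and pancreas markers were abundant enough to be tested.

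Between the wild-type colonies at 10 months, 2 of the 30 further glucocorticoid targets were lower in Q50-housed mice and 0 were higher. Over all genes 0.812% were lower and 1.09% higher in that comparison. The 2 were Il1r1 (−1.49 ± 0.24, adjusted p = 0.000176, edgeR) and Cdkn1a, a cell cycle inhibitor (−1.84 ± 0.33, 0.00132), and the list's median was −0.314 against −0.019 over all genes. In the receptor list 2 of 14 were higher, the mineralocorticoid receptor Nr3c2 (0.66 ± 0.13, 0.00285) and the corticosteroid-binding globulin Serpina6 (0.58 ± 0.16, 0.0426), and Nr3c1 was at 0.08 and not called. Among fasting genes 0 of 30 were called, and among feeding genes 2 of 25 were higher, Srebf1 (0.80) and Insig1 (0.89), both of sterol and fatty acid synthesis.

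Marker lists of other cell types gave 2 called genes in that comparison, Dpt (−1.22) of the matrix list and Gfap (−1.10) of the brain list, and the hepatocyte factor Hnf4a was lower by 0.42. Summed levels overlapped between the Q50-housed and Q20-housed wild types, at 233 to 375 against 203 to 459 CPM for the stellate and matrix list, 53.3 to 109 against 41.9 to 269 CPM for the lymphocyte and blood list, and 141 to 279 against 149 to 263 CPM for the brain list. These sums are carried by abundant genes such as Dcn (median 152 CPM) and Slc1a2 (190 CPM). The median log2 differences over the tested markers were −0.34 for the matrix list, −0.49 for the lymphocyte and blood list and −0.80 for the brain list, against −0.019 over all genes. The part of other cell types in the Zbtb16 difference was not tested.

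Several members other than Zbtb16 passed the test for age or for sex. For Zbtb16 no test is read in either, because its Q20 and Q140 libraries at 10 months enter both. Against 6-month livers, 5 of 10 members were lower at 10 months, where 25.4% of all genes were called and 13% were lower. Age and library series cannot be told apart in these differences. Tat was at 1344 ± 399 against 1826 ± 469 CPM (log2 difference −0.42 ± 0.08, adjusted p = 3.1e-05, edgeR) and Klf15 at 123.6 ± 30.4 against 161 ± 35.2 CPM (−0.38 ± 0.07, 2.55e-05). Igfbp1 (−0.72 ± 0.19, 0.00266), Irs2 (−0.39 ± 0.13, 0.0207) and Sgk1 (−0.27 ± 0.09, 0.0181) also fell. Zbtb16 was at −0.05 ± 0.21, as a description only. For Igfbp1 the age difference is an average over colonies whose means went different ways. They went from 44.5 ± 29.5 CPM at 6 months to 72.2 ± 73.6 CPM at 10 months in the Q20 colony. In the Q50 colony they went from 69.8 ± 45.5 to 18.7 ± 11.02 CPM. The rise in the Q20 colony was in females, from 34.7 to 153 CPM in Q20 and from 28.8 to 65.8 CPM in wild types. Males of that colony fell, from 63.6 to 17.1 CPM in Q20 and from 50.7 to 38.8 CPM in wild types. With the sequencing lane in the fit 0 of 10 members were called for age, and the estimates were then −0.465 for Tat, −0.268 for Klf15 and 0.0068 for Igfbp1. Lanes were fitted within each age, so these estimates compare the first lane at 10 months with the first lane at 6 months. That is not the average age difference, so this fit cannot say whether the age calls depend on lane. Libraries without an index counted as a lane of their own at each age. With the total count in the fit Igfbp1, Irs2 and Sgk1 were not called. The log2 difference of Zbtb16 was then −0.767, again as a description only.

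Between the sexes 66.7% of all genes were called, 34.2% higher and 32.5% lower in females, and 5 of 10 members were among them. Fkbp5 was 61.3 ± 26.7 CPM in 48 female and 25.7 ± 13.6 CPM in 45 male libraries (1.26 ± 0.12, adjusted p = 3.19e-15, edgeR). Irs2 (0.66 ± 0.13), Sgk1 (0.53 ± 0.09) and Ppargc1a (0.42 ± 0.08) were also higher in females, and Tat was lower (−0.28 ± 0.08, adjusted p = 0.0012), though not called on the FPKM scale (−0.114, 0.175). Zbtb16 was 17.6 ± 17.7 CPM in females and 20.6 ± 20.1 CPM in males (−0.22 ± 0.21, as a description only).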

How the data were processed

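Liver was flash frozen, total RNA was extracted with a miRNeasy kit, and Illumina libraries were made from an enriched RNA subfraction, per the labels' protocols. The authors deposited 2 tables of 39179 genes and 93 libraries. The first holds expected counts (26.0% of the deposited values above 0 are not whole within 0.001), the second the authors' FPKM values. CASAVA 1.8.2 is named, per the submitters' processing notes; the aligner, the counting program, its strand setting and the genome build are not given in the sources used here. Reads of overlapping genes (annotated for Fkbp5, Ppargc1a, Irs2 and Foxo1) can therefore not be told apart.

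Here expected counts were rounded, genes kept by edgeR's filterByExpr (minimum count 10, minimum total 15; 16126 genes) and scaled by TMM (factors 0.847 to 1.16). A model with 1 mean for each of the 24 groups was fitted with edgeR 4.0.16 (R 4.3.3) by quasi-likelihood; contrasts average the sexes. Slopes came from a second model with the deviation of Zbtb16 from its group mean as a covariate, in log2 CPM (prior count 2). Benjamini-Hochberg adjustment ran over all genes, with 0.05 as threshold, and the procedure was tested on simulated data. The FPKM values were tested with limma 3.58.1 as log2(FPKM + 0.1), an alternative which understates changes of low genes, and DESeq2 1.42.0 was another. Symbols matched 37607 identifiers through the reference table (GRCm38 gene coordinates). A gene was named as like Zbtb16 by its correlation with it across libraries, the 10 highest and 5 lowest. The members and lists were chosen with earlier results of these data known. The result for clock genes between wild-type housings is not reported here.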

Additional observations from a re-analysis of the deposited data

Results flagged for a closer look

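In groups of 4 libraries the highest or lowest value was compared with the rest by Dixon's test at its 95% critical value, for 10 members in 21 groups. Of these 210 cases, 16 stood apart (7.62%), 12 by a high and 4 by a low library, and the 3 groups of 3 were not tested. The nominal rate of about 1 in 20 holds for normally distributed values, and CPM were used without a log transform. The share over all genes was not computed and the members share libraries. The 7.62% is therefore not read as a trait of these members. For Zbtb16 the high libraries were Q20 females at 6 months replicate 2 (35.97 CPM), Q50 males at 6 months replicate 3 (53.2 CPM) and Q50-housed WT females at 10 months replicate 4 (11.46 CPM). For Fkbp5 they were Q140 males at 6 months replicate 3 (37.01 CPM), Q92 females at 10 months replicate 1 (88.31 CPM) and Q50-housed WT females at 6 months replicate 2 (164.9 CPM). For Tsc22d3, Q20 males at 6 months replicate 4 were low (42.9 CPM) and Q50 males at 10 months replicate 2 high (111.1 CPM). For Tat, Q50 females at 6 months replicate 3 were high (2083 CPM) and Q50-housed WT females at 6 months replicate 4 low (1674 CPM). For Ppargc1a the high libraries were Q140 females at 6 months replicate 1 (24.48 CPM) and Q92 females at 10 months replicate 1 (17.18 CPM). For Sgk1, Q140 females at 6 months replicate 4 (27.33 CPM) and Q50 females at 6 months replicate 4 (23.12 CPM) were low. For Irs2, Q50 females at 10 months replicate 1 (16.81 CPM) and Q50-housed WT females at 10 months replicate 1 (20.49 CPM) were high.

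The difference between Q50-housed and Q20-housed wild types was not the same at both ages for 2 members by a test of the difference itself, with 10 months minus 6 months at −4.03 on the log2 scale for Zbtb16 and −2.501 for Igfbp1. Both tests were chosen after the values at each age were seen.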

How the results depend on the processing

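Of 560 counts of members recomputed without 1 library, 523 equalled the count of the main fit or stayed within a set ratio of it. Of 4424 single values, 4295 kept their direction and their side of the threshold. Under the other alternatives 180 of 198 counts and 730 of 921 single values met the same criteria. Zbtb16 had at least 102 counts in every library, and the fits rest on groups of 3 or 4 libraries. The cause of the moves below was not tested.

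The Zbtb16 difference between wild-type housings at 10 months stayed called in every leave-one-out fit (−2.77 to −2.33, adjusted p 0.00338 to 0.0153, edgeR). Members called there were 2 with DESeq2, 0 with only indexed libraries and 1 to 2 in leave-one-out fits. Members whose housing difference changed with age were 1 with no filter, the lane covariate or the total count, and 1 to 2 in leave-one-out fits. The shares of all genes called in these fits are not given here, so the counts only describe how the main counts moved. Replicate numbers did not pair libraries (median r of same-numbered deviations 0.0075, over 0.1 in 20.3% of pairs). With the replicate block, Zbtb16 in Q92 against both wild types at 6 months was −0.0077, and the call of the Hnf4a slope was lost. In Q140 against Q20 at 10 months, which chose Zbtb16, no test is read. Whether the threshold was passed there varied between fits and, given the choice, carries no information. The Zbtb16 difference was −2.42 to −1.87 in leave-one-out fits and −2.315 to −1.898 under the other alternatives. Members called for age were 0 with the lane covariate, where Igfbp1 was 0.0068, but that fit compares the first lane of each age and not the average ages.

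Members moving with Zbtb16 were 0 at 10 months, 1 in females, 0 in males, 0 in wild types and 0 at 6 months with the total count. Members correlated with it at an unadjusted permutation p under 0.05 were 5 at 6 months and 1 at 10 months. Shares over all genes are not given for these settings, so the counts are not read as a trait of the members. The Tat slope, near 0, was 0.00021 with RLE factors, 0.0092 on log2(FPKM + 1), 0.0199 with the mitochondrial share, 0.0417 with indexed libraries, 0.0678 at 6 months, 0.104 in males, 0.134 in wild types, 0.0128 without the 5 libraries apart and −0.0127 to 0.0231 in leave-one-out fits. At 10 months slopes turned for Tsc22d3 (−0.150), Igfbp1 (0.0190), Irs2 (0.175) and Klf15 (−0.0435). They also turned for Sgk1 in females (0.0183) and wild types (0.0354) and for Irs2 in males (0.0659). Correlations turned at 10 months for Tsc22d3 (−0.185), Tat (−0.260), Igfbp1 (0.0663), Irs2 (0.272) and Klf15 (−0.0785). In males they turned for Igfbp1 (0.0095) and Irs2 (0.123), in females for Sgk1 (0.0741) and Tat (−0.152). For Tat r was also −0.0202 without the 2 farthest libraries, −0.0025 on log2(FPKM + 0.1), −0.0838 with the total regressed out and −0.0194 with it at 6 months. The calls of Acaca, Nr4a1 and Hnf4a on Zbtb16 were lost without any of 18, 19 and 5 single libraries.

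Zbtb16 differences near 0 also turned. On log2(FPKM + 0.1) they were −0.0093 for Q92 against both wild types at 6 months and 0.149 for 10 against 6 months. Q92 against Q20 at 6 months was 0.118 with the lane covariate and 0.104 without the 5 libraries apart, and Q140 against both wild types at 6 months was 0.0648 with the total count. The Irs2 difference between wild types at 10 months was −0.0096 on log2(FPKM + 0.1), −0.0255 with the lane, −0.0691 with indexed libraries and −0.0724 without the 5 apart, and that of Klf15 was −0.0097 with indexed libraries.

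Leave-one-out fits turned the Zbtb16 difference for Q140 (−0.862 to 0.0881) and Q92 (−0.619 to 0.289) against Q20 at 6 months, for Q140 (−0.688 to 0.0892) and Q92 (−0.445 to 0.290) against both wild types at 6 months, for Q92 against both at 10 months (−0.557 to 0.0622), for Q20 against its wild types at 10 months (−0.531 to 0.0660) and for age (−0.117 to 0.0387). Between wild types at 10 months they turned Foxo1 (−0.156 to 0.0365), Irs2 (−0.111 to 0.165), Klf15 (−0.0868 to 0.157), Ppargc1a (−0.0117 to 0.0980) and Sgk1 (−0.0234 to 0.195). The fits of slopes against age and sex were not run with libraries left out.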
